A study of Mus musculus with 24 samples.

Results

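Wnt ligands, R-spondins and secreted Wnt inhibitors were followed in stromal cells sorted from mouse Peyer's patches, which are lymphoid organs in the wall of the small bowel. The set holds 10 genes, picked by name from 36528 gene models, and each matched 1 model: the Wnt ligands Wnt5a, Wnt4 and Wnt2b, the R-spondins Rspo1, Rspo2 and Rspo3, and the secreted inhibitors Sfrp1, Dkk2, Dkk3 and Wif1. The study asked how fluid flow affects Peyer's patch stroma, and lowered flow with polyethylene glycol (PEG), an osmotic agent given at 10% (w/v) in the drinking water for 3 days. Its 24 RNA-seq libraries were 7 of fibroblastic reticular cells (FRC, the fibroblasts of lymphoid tissue) from PEG mice, 7 of FRC from unperturbed control mice, 6 of endothelial cells of high endothelial venules (HEV, the vessels through which lymphocytes enter) from PEG mice and 4 of HEV from control mice. Each library came from 1000 sorted cells of a mouse. The labels give no strain, age or sex, and do not say whether FRC and HEV libraries came from the same mice. Libraries are named by group and by the number in their label, which carries no order within a group.

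Wnt proteins are lipid-modified secreted ligands that bind Frizzled receptors. In the canonical branch they also engage the co-receptors Lrp5 and Lrp6 and stabilise beta-catenin, while other branches signal through receptors such as Ror2 without it. R-spondins bind the receptors Lgr4, Lgr5 and Lgr6 and keep the ligases Znrf3 and Rnf43 from removing Frizzled from the cell surface, which strengthens a Wnt signal. Sfrp1 and Wif1 bind Wnt proteins outside the cell, and Dkk2 binds Lrp6. In the mouse gut, mesenchymal cells near the crypts are a known source of Wnt2b, Rspo3 and other factors that maintain epithelial stem cells.

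RefSeq promoter windows, from 250 bases before to 50 after the gene start, were matched for 5 members (Wnt2b, Dkk2, Rspo1, Wnt4 and Wif1), and no window was used for Sfrp1, Rspo2, Rspo3, Wnt5a or Dkk3. The windows of Dkk2 and Wnt4 are shown because both genes were higher in FRC than in HEV and their windows differ most in base composition among those matched. Both are 300 bases long, lie on the plus strand of build GRCm38.p6, at chr3:132085042-132085341 for Dkk2 and at chr4:137277385-137277684 for Wnt4, and are written 5′ to 3′. Capitals mark the motifs searched on both strands, which were the TATA box TATAAA, the GC box GGGCGG, the CCAAT box CCAAT and the TCF/LEF motif CTTTGAT. A capital run can hold motifs that overlap or adjoin.
Dkk2: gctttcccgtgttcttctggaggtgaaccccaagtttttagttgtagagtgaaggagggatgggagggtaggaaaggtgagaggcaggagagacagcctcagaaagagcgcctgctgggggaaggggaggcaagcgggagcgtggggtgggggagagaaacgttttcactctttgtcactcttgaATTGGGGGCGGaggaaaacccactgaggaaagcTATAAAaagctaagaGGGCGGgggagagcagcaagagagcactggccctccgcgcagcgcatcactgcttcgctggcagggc
Wnt4: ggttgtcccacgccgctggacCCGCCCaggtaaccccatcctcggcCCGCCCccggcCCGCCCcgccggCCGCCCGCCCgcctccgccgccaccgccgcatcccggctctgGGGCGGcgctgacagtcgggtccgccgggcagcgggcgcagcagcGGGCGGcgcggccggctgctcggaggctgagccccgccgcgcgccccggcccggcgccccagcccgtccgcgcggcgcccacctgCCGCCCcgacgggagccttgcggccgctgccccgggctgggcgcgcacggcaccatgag
The Dkk2 window holds 1 TATA box, 2 GC boxes and 1 CCAAT box, with 57.7% G and C and 11 CpG dinucleotides. The Wnt4 window holds 8 GC boxes and none of the other motifs, with 84.3% G and C and 51 CpG, more than 99.3% of the 32851 promoters of the same length. Over those promoters the TATA box letters occurred in 13.6%, the GC box in 35.7%, the CCAAT box in 37.4% and the TCF/LEF letters in 3.73%. None of the 5 matched windows held the TCF/LEF letters, which says only that these letters are not in these windows.

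Read totals over genes were 15823379 to 21710946 in FRC PEG, 12416032 to 18052362 in FRC control, 3115003 (library 16) to 19948766 in HEV PEG, and 14392146 to 17160900 in HEV control. The mean log2(CPM + 1) of 10 fibroblast markers was 9.12 to 9.58 in FRC and 0.51 to 2.88 in HEV libraries, highest there in HEV control 9. The fibroblast marker Thy1 was at or near 0 in FRC libraries (at most 4.25 CPM). The mean of 10 endothelial markers was 8.87 to 9.24 in HEV and 1.27 to 3.83 in FRC libraries. FRC libraries also held the smooth muscle markers (mean level 8.44 to 9.02), the telocyte marker Foxl1 (6.10 to 49.0 CPM) and the trophocyte marker Grem1 (170.5 to 479 CPM). Of the other trophocyte markers Ackr4 was higher in FRC (89.5 to 510 CPM) than in HEV (at most 21.2 CPM). Cd81 was lower in FRC (264 to 551 CPM) than in HEV (741 to 1267 CPM). Cd34 had medians of 368 CPM in FRC PEG and 310 CPM in FRC control, against 460 CPM in HEV PEG and 720 CPM in HEV control. Whether these markers came from FRC or from other cells in the sorts was not tested, nor was their part in the results.

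All 10 genes were higher in FRC than in HEV among control mice, against 14.2% of the 15743 genes tested that were called higher (edgeR's quasi-likelihood test, Benjamini-Hochberg adjusted p under 0.05). Libraries of the 2 cell types did not overlap for 8 of the 10 genes, the exceptions being Rspo1 and Wif1, against 11.3% of genes tested with every FRC library higher. Of the 10 genes 8, all but Sfrp1 and Wnt5a, passed the filter on low counts only through their FRC libraries, so these counts do not support a difference of their own. For Rspo1, Rspo2, Rspo3, Wnt2b and Wif1 the HEV control libraries held 3 reads or fewer in all. Libraries 1 to 9 alone hold 3 FRC and 2 HEV controls. HEV control 9 is alone there in its pool of libraries, inferred from recurring index pairs and a covariate of the test. The fit thus rested on HEV control 8 alone and cannot say whether a call holds. Wnt4, Wnt2b and Rspo2 were not called in this fit, with log2 differences of 3.61, 10.4 and 8.12. Rspo1 and Wif1 were not tested in it. Among PEG mice the 7 genes that passed the filter were all higher in FRC, against 14.4% of 14991 genes tested, and 6 of them did not overlap, against 9.4%. Of these 7 genes 6, all but Wnt4, passed only through FRC, among them Dkk3 with 4 reads and Wnt2b with 37 reads in HEV PEG, so nothing is read from these counts. In such bulk samples, fewer cells that make a transcript and less of it per cell cannot be told apart.

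**Figure D1:**
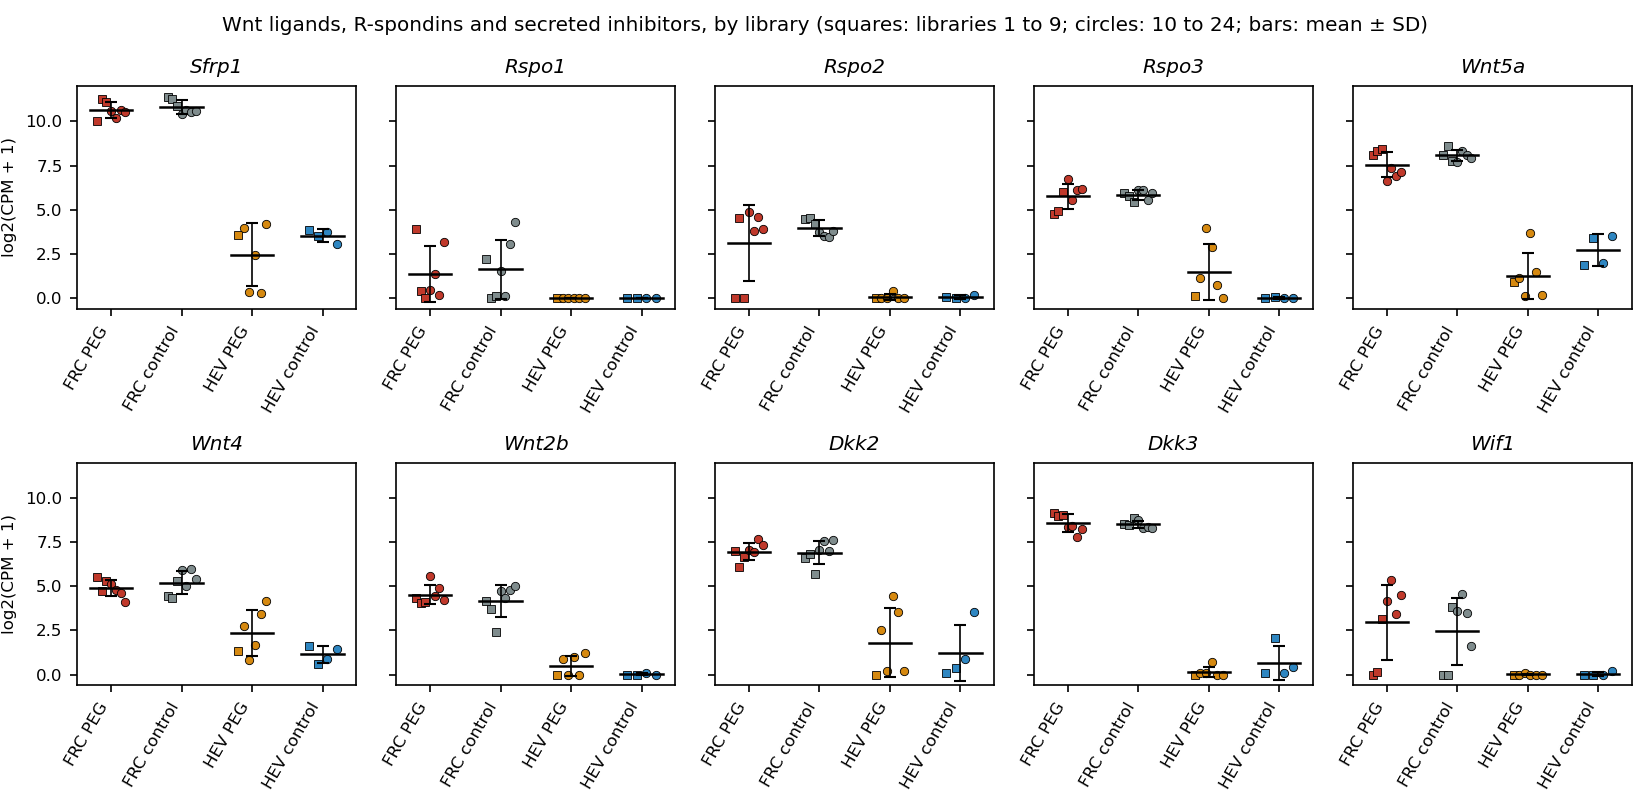
Expression of the 10 genes in every library, as log2(CPM + 1) on a common vertical axis, with the FRC groups left of the HEV groups and PEG left of control in each; squares are libraries 1 to 9, circles libraries 10 to 24, and bars the mean and SD of the group. FRC points lie above HEV points for most genes, and PEG and control points overlap within FRC.

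Wnt5a, which acts largely through branches without beta-catenin, was the most abundant of the 3 Wnt ligands per length in each of the 14 FRC libraries. It was at 96.7 to 343 CPM in FRC PEG (median 160.5), against 0.1003 to 11.9 CPM (median 1.06) in HEV PEG. In FRC control it was at 203 to 388 CPM (median 270.6), against 2.66, 9.79, 3.00 and 10.6 CPM in HEV control libraries 8, 9, 17 and 24. FRC libraries lay far above HEV libraries in both conditions. The log2 difference was 6.52 ± 1.04 (SE, adjusted p = 4.78e-04) in PEG mice and 5.41 ± 0.51 (adjusted p = 1.17e-05) in control mice.

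Wnt4, best known for its roles in kidney and female reproductive tract development, stood closest between the cell types. It was at 16.6 to 45.3 CPM in FRC PEG (median 26.6), against 0.802 to 16.7 CPM (median 4.03) in HEV PEG. In FRC control it was at 19.6 to 63.1 CPM (median 38.8), against 2.09, 0.524, 0.887 and 1.74 CPM in HEV control libraries 8, 9, 17 and 24. The PEG groups met at their edges, where FRC PEG 19 with 16.56 CPM fell just under HEV PEG 23 with 16.68 CPM, while the control groups stayed apart. Wnt4 differed by a log2 of 2.64 ± 0.71 (adjusted p = 0.0127) in PEG mice and 4.88 ± 0.66 (adjusted p = 2.11e-04) in control mice. Within libraries 10 to 24 the PEG difference was 2.11 and no longer passed (adjusted p = 0.0742).

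Wnt2b, a canonical ligand of gut mesenchyme, was at 15.7 to 47.0 CPM in FRC PEG (median 19.1), against 0 to 1.31 CPM (median 0.420) in HEV PEG. The log2 difference among PEG mice was 6.02 ± 1.15 (adjusted p = 0.00122), with no overlap. FRC control libraries held 4.27 to 31.2 CPM (median 19.1), while the 4 HEV control libraries held 1 read, in HEV control 17. The ratio of CPM over summed reads was 1252 among controls, with a 95% counting interval of 224.5 to 49470. The fitted log2 difference was 9.92 ± 1.15 (edgeR adjusted p = 6.54e-05). This fitted value depends on the prior count, and Wnt2b passed the filter there only through FRC.

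Rspo3, the R-spondin linked to crypt stem cells and to vessel development, was at 26.6 to 107 CPM in FRC PEG (median 62.3), against 0 to 14.8 CPM (median 0.943) in HEV PEG. The log2 difference among PEG mice was 5.86 ± 1.15 (adjusted p = 0.00155), with no overlap. FRC control libraries held 42.4 to 69.8 CPM (median 60.7), and the 4 HEV control libraries held 1 read. The ratio of CPM over summed reads was 3628 among controls (95% counting interval 650.9 to 143300). The fitted log2 difference was 11.2 ± 0.70 (edgeR adjusted p = 4.12e-07). This fitted value depends on the prior count, and Rspo3 passed the filter there only through FRC.

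Rspo2 and Rspo1, which act through the same receptors as Rspo3, were lower and more uneven. Rspo2 was at 10.2 to 22.5 CPM in all 7 FRC control libraries (median 12.7), and the HEV control libraries held 3 reads, a ratio of 312.9 (95% counting interval 106.9 to 1519). The fitted log2 difference was 7.96 ± 1.13 (edgeR adjusted p = 3.01e-04). This fitted value depends on the prior count, and Rspo2 passed the filter there only through FRC. Rspo1 was at 0 to 19.2 CPM in FRC control (median 1.96), with no read in FRC control 5 and with 108 and 312 reads in FRC control 20 and 21. It had no read in any of the 10 HEV libraries. Over summed reads FRC control was at least 96.6-fold higher against a floor of 3 reads over the group (edgeR adjusted p = 0.031). FRC control 21 held 312 of the 519 Rspo1 reads of FRC control, so this ratio rests largely on 1 library and is no bound for the others. The fitted log2 value of 9.33 depends on the prior count and is no bound. Rspo1 passed the filter in 7 of the 11 fits that left out 1 control library, and its call was lost in the 4 of them that left out an HEV control, with an adjusted p of up to 0.0706. Among PEG mice neither gene passed the filter. FRC PEG libraries held 0 to 14.2 CPM of Rspo1 (median 0.359) and 0 to 28.8 CPM of Rspo2 (median 14.35). Over summed reads Rspo1 in FRC PEG was at least 104.5-fold higher than in HEV PEG, against the same floor. FRC PEG 1 held 309 of the 476 Rspo1 reads of the group, so this value rests largely on 1 library and is no bound for the others. Rspo2 was 1127-fold higher over summed reads (95% counting interval 202.1 to 44550).

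Sfrp1, a secreted antagonist that binds Wnt proteins, was the most abundant of the 10 genes per length in FRC and also the inhibitor with the steadiest HEV level in controls. FRC PEG libraries held 1038 to 2441 CPM (median 1555), against 0.237 to 17.2 CPM (median 7.66) in HEV PEG. FRC control libraries held 1361 to 2700 CPM (median 1620), against 13.5, 10.4, 12.3 and 7.30 CPM in HEV control libraries 8, 9, 17 and 24. No FRC library came near an HEV library. Sfrp1 differed by a log2 of 7.55 ± 1.02 (adjusted p = 1.36e-04) in PEG mice and 7.23 ± 0.25 (adjusted p = 8.90e-09) in control mice.

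Dkk3, a divergent Dickkopf family member, was at 219 to 575 CPM in FRC PEG (median 345), against 0 to 0.642 CPM in HEV PEG. FRC control libraries held 311 to 456 CPM (median 355), against 0.0633, 3.205, 0.0682 and 0.347 CPM in HEV control libraries 8, 9, 17 and 24. Of the 62 Dkk3 reads in HEV controls, 55 were in HEV control 9, the HEV library with the highest fibroblast marker level. The HEV PEG libraries held 4 Dkk3 reads in all, so the gene passed the filter there only through FRC and its fitted value depends on the prior count. The ratio of CPM over summed reads was 8216 in PEG mice, with a 95% counting interval of 3209 to 30160. In control mice Dkk3 differed by a log2 of 9.13 ± 0.90 (adjusted p = 2.30e-05), and leaving out HEV control 9 gave 11.0.

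Dkk2, whose promoter window is printed above, was at 68.0 to 201 CPM in FRC PEG (median 125.5), against 0 to 20.9 CPM (median 2.51) in HEV PEG. In FRC control it was at 50.6 to 192 CPM (median 127.5), against 0.0633, 0.291, 0.887 and 10.5 CPM in HEV control libraries 8, 9, 17 and 24. The log2 difference was 5.12 ± 1.25 (adjusted p = 0.00838) in PEG mice and 6.77 ± 1.12 (adjusted p = 9.94e-04) in control mice, with no overlap in either. Without HEV control 24 the control value was 8.44.

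Wif1, which binds Wnt proteins directly, was at 0 to 22.9 CPM in FRC control (median 10.4), with no read in FRC control 4 and 5. HEV controls held 2 Wif1 reads, both in HEV control 24, a ratio of 270.0 (95% counting interval 74.5 to 2232). Wif1 passed the filter there only through FRC, and its fitted value depends on the prior count. The fitted log2 difference was 7.72 ± 2.45 (edgeR adjusted p = 0.0386). This call was lost in 7 of the 11 fits that left out 1 control library, with an adjusted p of up to 0.103. Among PEG mice Wif1 was at 0 to 39.9 CPM in FRC (median 9.62) and did not pass the filter, and the ratio of summed reads was 1029 (95% counting interval 184.4 to 40670).

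In HEV libraries Sfrp1 held no fixed ratio to the fibroblast markers. Its CPM was 3.72% to 8.32% of the summed CPM of 10 fibroblast markers across FRC libraries. The same share was 0.381% to 187% in HEV PEG and 2.08% to 37.5% in HEV control libraries. For Dkk3 the share was 0.908% to 2.06% in FRC, and 0% to 1.67% in HEV PEG and 0.142% to 1.79% in HEV control libraries. For Wnt5a the share was 0.379% to 1.17% in FRC, 0.498% to 30.8% in HEV PEG and 1.96% to 54.6% in HEV control. In the same order it was 0.0527% to 0.270%, 3.98% to 75.4% and 0.105% to 8.93% for Wnt4. For Dkk2 it was 0.158% to 0.832%, 0% to 63.0% and 0.0582% to 53.9%. For Rspo3 it was 0.0904% to 0.420%, 0% to 73.4% and 0% to 0.0116%. The summed CPM of these 10 markers was 5.86 to 62.2 in HEV PEG (median 22.5) and 19.5 to 500.5 in HEV control (median 40.2). Within the list Pdgfra was at 0 to 1.61 CPM and Pdpn at most 0.321 CPM in all HEV libraries, whereas Col3a1 was at 3.13 to 29.1 CPM in HEV PEG and 5.07 to 362.9 CPM in HEV control. Dcn reached 20.9 CPM in HEV PEG and 63.5 CPM in HEV control, and Col1a1 reached 1.61 CPM in HEV PEG and 51.3 CPM in HEV control. The part of fibroblast RNA in the HEV values of the members was not tested.

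**Figure D2:**
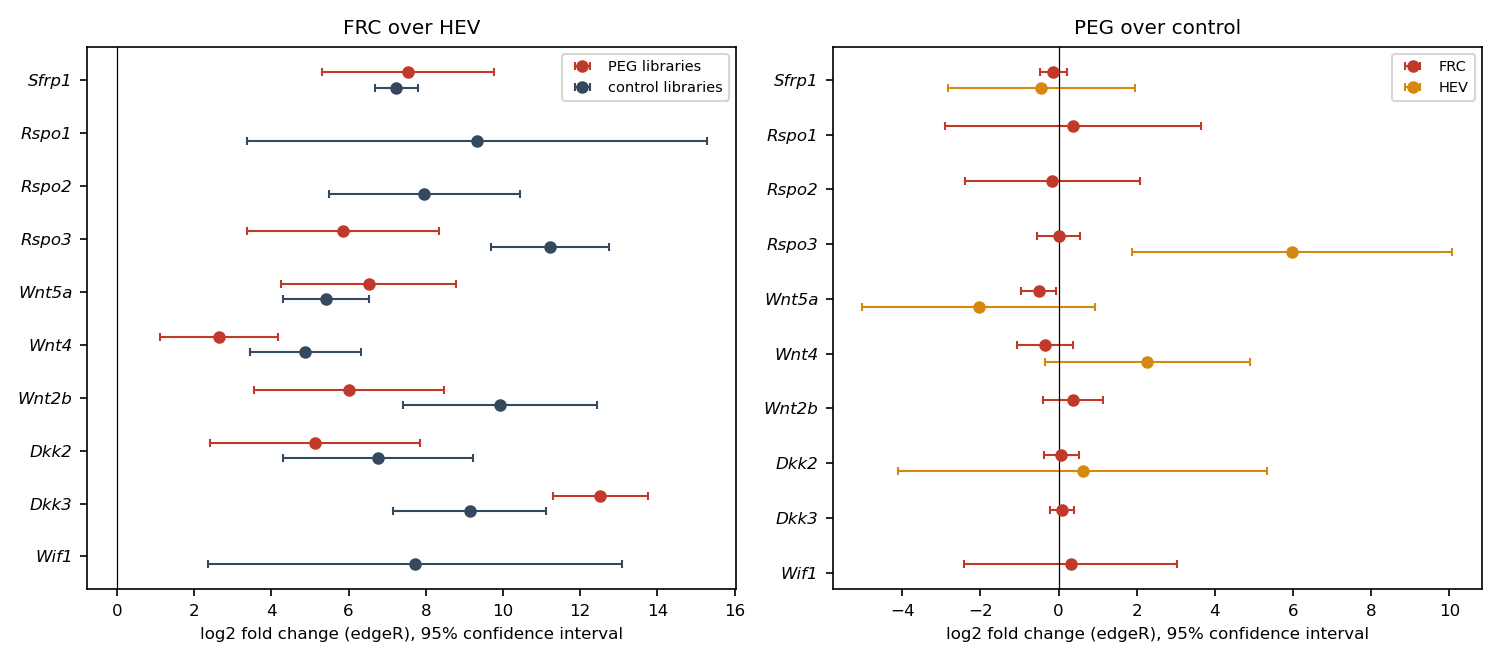
Fitted log2 fold changes (edgeR) with 95% confidence intervals for each gene, in FRC over HEV (left; PEG libraries above control libraries) and in PEG over control (right; FRC above HEV); a gene with no point was not tested. All intervals on the left lie above 0, with the lowest point at 2.64 for Wnt4. Of the genes there, 8 of 10 among controls and 6 of 7 among PEG mice passed the filter only through FRC. Nothing is therefore read from the left intervals as a set. On the right all intervals but those of Wnt5a in FRC and Rspo3 in HEV span 0, and no gene passed adjustment.

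Levels of different genes were ordered on the deposited length-scaled values (nRPKM, the authors' RPKM divided by a size factor of each library). In FRC control the medians were 262 for Sfrp1, 79.5 for Dkk3, 29.8 for Wnt5a, 25.4 for Dkk2, 19.35 for Rspo3, 7.935 for Wnt4, 3.93 for Wnt2b, 2.35 for Rspo2, 2.16 for Wif1 and 0.796 for Rspo1. Sfrp1 was above Dkk3, and Dkk3 above every other member, in each of the 14 FRC libraries. In FRC control Wnt5a overlapped with Dkk2, and Dkk2 with Rspo3, while Wnt5a lay above Rspo3 with no overlap. Wnt4 lay below Rspo3 in all 7 FRC control libraries, and from Wnt4 down each member overlapped with the next. Sfrp1 supplied 61.9% of the summed nRPKM of the 10 genes in FRC PEG and 60.3% in FRC control (medians). For Wif1 the length implied by the deposited values was 1.575 times, and for Rspo3 0.772 times, that of the exons in the reference used here, on a scale set by all genes, so their place in the order is less certain. In HEV control Sfrp1 was again highest, with a median of 1.96, and did not overlap with Wnt5a at 0.723 nRPKM.

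None of the 10 genes passed the test for a PEG difference in FRC, and no gene of 14595 did (0% called). DESeq2 called 57 genes and limma-voom 0, and 989 genes had an unadjusted p under 0.05. The median log2 difference of the 10 genes was 0.04, against 0.01 over all genes tested, with 6 positive and 4 negative. All 10 genes overlapped between PEG and control libraries, and 0.0754% of genes tested did not. Wnt5a was the only member with an unadjusted p under 0.05. Its FRC PEG libraries 1, 2, 3, 10, 11, 18 and 19 were at 272, 316, 343, 96.7, 160.5, 121 and 142 CPM, against 273, 388, 216, 203, 319, 271 and 247 CPM in FRC control libraries 4, 5, 6, 12, 13, 20 and 21. Its log2 difference was −0.51 (95% confidence interval −0.96 to −0.06), with an edgeR adjusted p of 0.675, and 4 of 7 PEG libraries were below every control.

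For the other 9 genes the intervals of the PEG difference spanned 0. They ran from −0.47 to 0.21 for Sfrp1, from −0.22 to 0.39 for Dkk3, from −0.36 to 0.51 for Dkk2 and from −0.55 to 0.55 for Rspo3 on the log2 scale. For Wnt4 the interval ran from −1.05 to 0.38 and for Wnt2b from −0.41 to 1.13. Those of Rspo1, Rspo2 and Wif1 spanned from −2.90 to 3.66, from −2.39 to 2.08 and from −2.41 to 3.04, and set little limit on a change. Rspo2 was absent from FRC PEG 1 and 3 and was at 12.9 to 28.8 CPM in the other 5 PEG libraries, where all 7 controls had 10.2 to 22.5 CPM. Rspo1 was at 14.2 CPM in FRC PEG 1, its highest PEG value, where Rspo2 had no read. Among libraries 10 to 24 alone the 4 FRC PEG libraries were at 12.9 to 28.8 CPM Rspo2 and the 4 controls at 10.2 to 12.7 CPM, which did not overlap, as was so for 7.04% of the 15359 genes tested there (log2 difference 0.82, adjusted p = 0.567).

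Wnt5a was read separately in libraries 1 to 9 and in libraries 10 to 24, a split by label number. Among FRC libraries 1 to 9 (3 PEG, 3 control, all in the first pool of libraries inferred from recurring index pairs) Wnt5a was at 272 to 343 CPM in PEG and 216 to 388 CPM in control. The fitted log2 value was 0.0945, with an adjusted p of 0.999. Among libraries 10 to 24 it was at 96.7 to 160.5 CPM in the 4 PEG libraries and 203 to 319 CPM in the 4 controls, which did not overlap, as was so for the same 7.04% of genes (log2 difference −0.97, adjusted p = 0.178). Whether the PEG difference of Wnt5a differs between libraries 1 to 9 and 10 to 24 was not tested. Dkk3 was at 492.7 to 575 CPM in PEG and 355 to 456 CPM in control among libraries 1 to 9, which did not overlap, as was so for 10.7% of the 14360 genes tested there (log2 difference 0.45, adjusted p = 0.999). Among libraries 10 to 24 it was at 219 to 345 CPM in PEG and 311 to 428 CPM in control, which overlapped. Foxl1, the marker of subepithelial telocytes, which are a known Wnt5a source in the mouse gut, was at 6.10 to 25.2 CPM in FRC PEG (median 15.7) and 8.99 to 49.0 CPM in FRC control (median 34.1), and its part in the Wnt5a values was not tested. The mean log2(CPM + 1) of the 4 telocyte markers was 5.69 to 6.85 in FRC PEG (median 6.69) and 6.08 to 7.12 in FRC control (median 6.54). Within that list the medians of Bmp5 and F3 were lower in FRC PEG, as for Foxl1, and that of Bmp7 was higher (127.0 against 91.3 CPM). The mean level of 5 pericyte markers was 5.52 to 6.12 in FRC PEG and 5.46 to 6.22 in FRC control. The summed CPM of 12 epithelial markers was 83.4 to 4962 in FRC PEG (median 477.1) and 45.2 to 1979 in FRC control (median 118.7). With the epithelial level as a covariate the Wnt5a value was −0.46 (adjusted p = 0.9997) and no member was called.

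**Figure D3:**
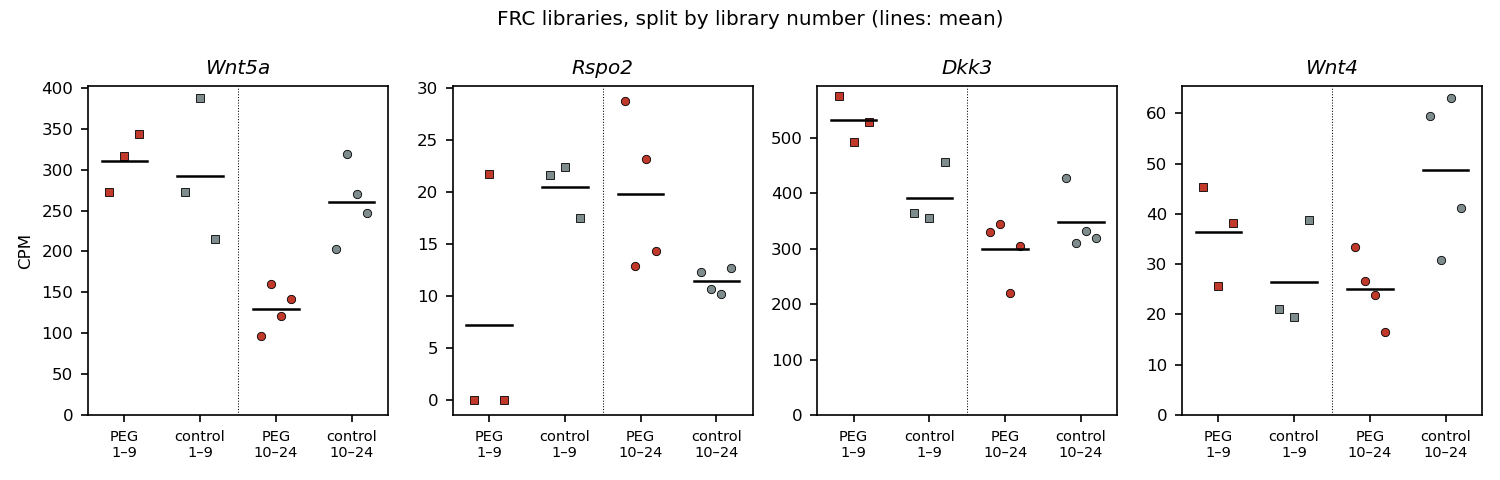
CPM of Wnt5a, Rspo2, Dkk3 and Wnt4 in FRC libraries, PEG left of control within libraries 1 to 9 and then within libraries 10 to 24; lines are means. Among libraries 10 to 24 the 4 PEG points of Wnt5a lie at 96.7 to 160.5 CPM, against 203 to 319 CPM in controls. Those of libraries 1 to 9 overlap with their controls. Groups without overlap were 7.04% of genes tested in libraries 10 to 24.

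In HEV none of the 5 members that passed the filter was called for PEG, and no gene of 14308 was (0% called), while 886 had an unadjusted p under 0.05 and DESeq2 called 116. Rspo3 was at 0.0802, 1.17, 14.8, 6.42, 0.711 and 0 CPM in HEV PEG libraries 7, 14, 15, 16, 22 and 23, against 0, 0.0583, 0 and 0 CPM in HEV control libraries 8, 9, 17 and 24. Of the 346 Rspo3 reads in HEV PEG, 295 were in library 15, and the groups overlapped at 0. Rspo3 was the only member with an unadjusted p under 0.05 here. Its log2 difference was 5.98 ± 1.87, with an edgeR adjusted p of 0.794, and the ratio of CPM over summed reads was 266.5 (95% counting interval 47.5 to 10560). The summed CPM of the 12 epithelial markers was 41.6 to 3568 in HEV PEG (median 1437) and 14.1 to 564.8 in HEV control (median 545.9). With the epithelial level as a covariate the Rspo3 value was 6.08 (adjusted p = 0.915).

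Wnt4 was at 1.52, 5.82, 0.802, 2.25, 9.95 and 16.7 CPM in HEV PEG libraries 7, 14, 15, 16, 22 and 23, against 0.524 to 2.09 CPM in HEV control. Of the 6 PEG libraries 4 were above every control, and the log2 difference of 2.27 ± 1.19 did not pass (adjusted p = 0.829). The log2 differences of Wnt5a (−2.04 ± 1.36), Dkk2 (0.63 ± 2.16) and Sfrp1 (−0.44 ± 1.09) also did not pass. Wnt2b was not tested, with 37 reads in 3 of 6 HEV PEG libraries against 1 read in HEV control. Dkk3, also not tested, had 4 reads in HEV PEG against 62 in HEV control. Rspo1, Rspo2 and Wif1 had 3 reads or fewer in each HEV group. Groups without overlap were 0.937% of genes tested, and none of the 5 tested members was among them.

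The PEG difference was set against itself between the cell types in 1 model of all 24 libraries, where 0.011% of 18203 genes (2 genes) passed and none of the 9 members that could be fitted did. Rspo1 was left out because it had no HEV read. Rspo3 had the value of smallest p, −6.52 ± 1.54 for FRC minus HEV (adjusted p = 0.141), and Dkk3 had 4.08 ± 0.98 (adjusted p = 0.150). DESeq2 called Dkk3 (4.12, adjusted p = 0.00752) among 350 of 18203 genes. The edgeR test without HEV control 8 did so (4.49, adjusted p = 0.0297) among 16 of 19090 genes, whereas without HEV control 9 the value was 1.69. HEV PEG held 4 Dkk3 reads, and HEV control 9 held 55 of the 62 in HEV control, so nothing is read from these calls. Wnt4 had −2.42 ± 0.85 (adjusted p = 0.328) and Wnt2b −3.79 ± 1.44 (adjusted p = 0.374).

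Other genes of the pathway were read from lists of ligands, inhibitors, receptors and targets. Among control mice 1 of the 3 other Wnt ligands tested was higher in FRC (Wnt5b, 16.6 ± 11.1 CPM in FRC against 0.0332 ± 0.0384 CPM in HEV; SD, n = 7 and 4), as were both further inhibitors tested, Frzb and Draxin. Of 21 receptors tested 11 were higher and 2 lower in FRC, against 2233 higher (14.2%) and 1636 lower of all 15743 genes tested. Fzd1, Fzd2, Ror1 and Ror2 had the smallest p among the higher ones, and Ror2, a Wnt5a receptor, was at 25.6 ± 12.3 CPM in FRC and 0.067 ± 0.0965 CPM in HEV (SD). In HEV control Fzd2, Ror1 and Ror2 held 2, 4 and 4 reads and passed the filter only through FRC. Nothing is therefore read from the receptor counts. Fzd4, a receptor of vascular development, and Fzd6 were lower in FRC, with Fzd4 at 28.6 ± 12.6 CPM against 151.5 ± 94.0 CPM in HEV. Wls, which carries Wnt proteins to the cell surface, was higher in FRC by 1.48 ± 0.37 (adjusted p = 0.012), and Porcn was not called.

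In signal transduction 2 of 15 genes tested were higher in FRC (Bcl9 and Dvl3) and 2 lower (Apc and Ctnnb1, which encodes beta-catenin, by −0.83 ± 0.21). Both counts are near the shares over all genes, so nothing is read from them. Of 10 target genes tested 5 were higher, among them Nkd1 (54.0 ± 29.3 CPM in FRC and 0.0583 ± 0.117 CPM in HEV) and Axin2 (13.2 ± 7.53 and 2.19 ± 3.15 CPM), both feedback inhibitors induced by canonical signals, with Tnfrsf19, Cd44 and Ccn4. Ccnd1 was lower in FRC (70.3 ± 19.5 CPM against 210.9 ± 9.55 CPM in HEV). Genes that HEV libraries hardly express passed the filter only through FRC, among them Nkd1 with 4 reads and Tnfrsf19 with 1 read in HEV control. Nothing is therefore read from the list counts. Over all 14991 genes tested among PEG mice, 2154 (14.4%) were higher in FRC and 1868 lower, and nothing is read from the list counts there either. Among PEG mice the lists gave 2 higher of 3 ligands (Wnt5b, Wnt6), 1 of 1 inhibitor (Frzb), 11 higher and 3 lower of 19 receptors, with Fzd5 beside Fzd4 and Fzd6 among the lower, 1 of 2 secretion genes (Wls), 1 higher and 2 lower of 15 transduction genes and 4 higher and 1 lower of 10 targets.

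**Figure D4:**
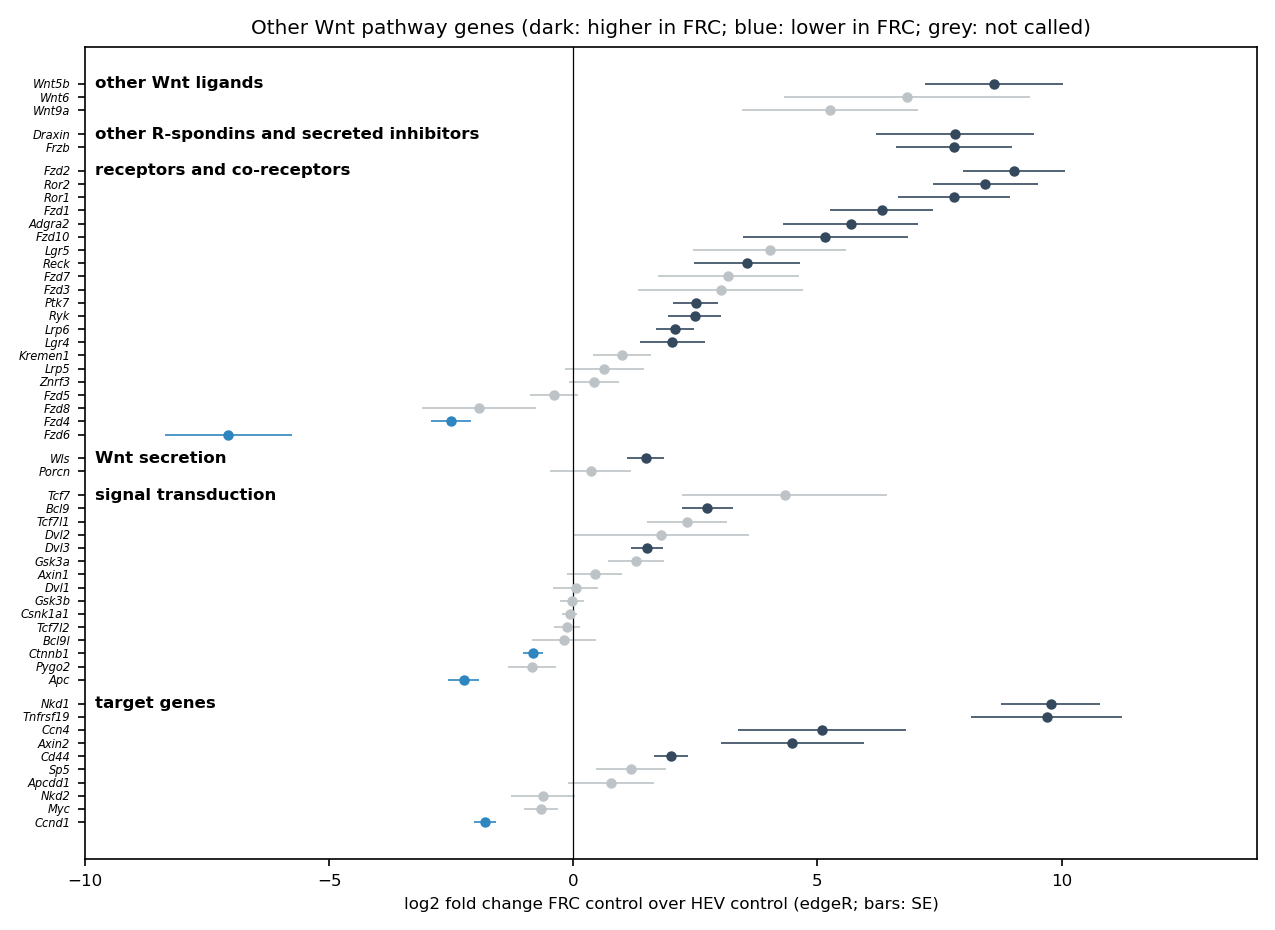
Log2 fold change of FRC control over HEV control (edgeR, bars SE) for the other pathway genes tested, by list; dark points are called higher in FRC, blue lower and grey not called. Fzd6, Fzd4, Apc, Ctnnb1 and Ccnd1 lie on the lower side, and 22 genes on the higher side are called. Over all genes tested 14.2% were called higher. Some of these genes passed the filter only through FRC, so nothing is read from the number called.

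No gene of these lists was called for PEG in either cell type. In FRC the genes of smallest p in each list were Kremen1 (log2 difference 0.78 ± 0.33) and Ptk7 (−0.35 ± 0.21) among receptors, Bcl9 (−0.61 ± 0.31) and Csnk1a1 (−0.19 ± 0.11) in transduction, Myc (0.57 ± 0.32) and Nkd1 (−0.48 ± 0.35) among targets, and Wnt6 (2.70 ± 1.46) and Wnt5b (0.27 ± 0.66) among ligands. Wls (0.24 ± 0.18), Porcn (0.72 ± 0.58), Draxin (−0.21 ± 0.94) and Sostdc1 (−0.55 ± 2.83) were those of the remaining lists. In HEV they were Pygo2 (−1.55 ± 0.51), Tcf7 (4.54 ± 2.39), Fzd5 (1.05 ± 0.42), Ptk7 (0.79 ± 0.50), Sp5 (1.59 ± 0.72), Apcdd1 (−2.22 ± 1.31), Porcn (−1.45 ± 0.93) and Wls (0.17 ± 0.37). For the difference between the cell types they were Frzb (4.00 ± 1.25), Sostdc1 (−4.81 ± 3.54), Kremen2 (7.90 ± 2.62), Fzd5 (−1.77 ± 0.65), Pygo2 (1.38 ± 0.65), Bcl9 (−1.25 ± 0.65), Axin2 (−2.42 ± 1.24), Ccnd1 (0.53 ± 0.33), Wnt6 (−3.89 ± 2.57), Wnt5b (−3.22 ± 2.19), Porcn (1.40 ± 1.30) and Wls (0.04 ± 0.48). No adjusted p was under 0.05 in these 3 comparisons.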

How the data were processed

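RNA of sorted FRC and HEV endothelial cells was amplified by template switching and made into transposase libraries, per the labels' protocols. The authors kept uniquely mapped reads. The protocol names GSNAP, the HTSeqGenie package and build GRCh37, while the submitters' processing notes name mm9, and the gene IDs belong to mouse. Versions are not given in the sources used here. Per the file headers each library has a read count and an RPKM for each gene model. The deposited counts were tested, and the deposited RPKM, which equalled count over size factor up to a gene constant (5703 genes checked, tolerance 1e-06), served only to order levels. CPM is a gene's count scaled to the library's total over genes.

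Symbols were joined to RefSeq GRCm38.p6 for 85.0% of models, with 97.3% of reads. Each comparison used filterByExpr (count minimum 10), TMM and the edgeR 4.0.16 quasi-likelihood test (limma 3.58.1, R 4.3.3) with the library pool, inferred from recurring index pairs, as covariate, and Benjamini-Hochberg adjustment over all genes tested. DESeq2 1.42.0 was an alternative. The scripts were tested on simulated data. Floors and intervals cover counting error only, because reads have no molecular identifiers. p-values measure the spread between libraries, which may in part share a mouse where FRC and HEV are compared. The i5 index is uneven, with all FRC PEG libraries on 503 and all HEV PEG libraries on 504.

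The members, lists and naming rule were chosen with earlier results of these data known. Named were all 10 members, up to 4 called genes of smallest p per pathway list and direction, the 2 of smallest p of a list where fewer were called under PEG, and the genes most like each member in FRC. Genes outside the rule, such as Foxl1 and Thy1, are markers. Libraries 1 to 9 alone were chosen after seeing the data.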

Additional observations from a re-analysis of the deposited data

Results flagged for a closer look

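Single libraries stood far from the rest of their group in 5 of the 32 member and group pairs that could be checked. The rule flags about 1 in 20 only for normally distributed values. All 5 flagged values were the highest of their group, in uneven CPM values, so their number is not read as an excess. Another 8 pairs held 3 reads or fewer and were not checked. Rspo1 was at 19.19 CPM in FRC control 21, against 0 to 7.23 CPM in the other FRC controls. Wnt5a was at 11.88 CPM in HEV PEG 16, the library of lowest depth, against 0.1003 to 1.82 CPM in the other HEV PEG libraries. Dkk2 was at 10.49 CPM in HEV control 24, against 0.0633 to 0.887 CPM in the other HEV controls. Dkk3 was at 0.642 CPM in HEV PEG 16, which is 2 reads, against 0 to 0.0559 CPM in the other HEV PEG libraries. It was at 3.205 CPM in HEV control 9, against 0.0633 to 0.347 CPM in the other HEV controls.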

How the results depend on the processing

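No paired analysis was possible because each library has its own number in the labels and none is shared between groups. In FRC PEG against control, genes called were 177 with no filter and 57 with DESeq2, and in HEV 141 with no filter, 116 with DESeq2 and 18 with all 24 libraries in 1 model, against 0 as reported, with no member among them. Between control FRC and HEV, libraries 10 to 24 alone gave 2276 genes called and libraries 1 to 9 alone 1185, with 5 members called there. The difference of the PEG effect gave 38 genes with no filter, 350 with DESeq2 (1 member), 0 with limma-voom, 5 without the pool and 0 in libraries 10 to 24; leaving out a library gave 1 to 16 genes and 0 to 1 members. Values that changed sign in FRC PEG against control were Rspo3 (−0.0112 with DESeq2 size factors and with DESeq2, −0.0035 with no filter, −0.0052 at a minimum of 50, −0.0206 in 1 model, −0.39 in libraries 1 to 9, −0.11 with epithelial level), Rspo1 (−1.84 with limma-voom, −0.33 without pool, −0.91 in libraries 10 to 24, −0.14 with i5 index), Rspo2 (0.82), Dkk2 (−0.034) and Dkk3 (−0.20) in libraries 10 to 24, Dkk3 with i5 index (−0.0036), and Wnt5a (0.0945) and Wnt4 (0.47) in libraries 1 to 9. Dkk2 in HEV turned to −0.13 in libraries 10 to 24, −1.05 with i5 index and −0.17 with epithelial level, and in the difference limma-voom gave −0.16 for Rspo2 and 0.061 for Dkk2. Leaving out a library ranged over −1.59 to 1.10 (Rspo1), −0.75 to 0.21 (Rspo2), −0.17 to 0.11 (Rspo3), −0.051 to 0.15 (Dkk2) and −0.41 to 2.29 (Wif1) in FRC, −1.65 to 2.55 for Dkk2 in HEV, and −0.60 to 4.08 for Wif1 in the difference. The cause was not tested. In HEV 8 member and group pairs held 3 reads or fewer, and a lower level could not be detected there at this depth.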

Other observations

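The genes whose FRC profile was most like a member's, by Pearson r of log2(CPM + 1) centred within pool over 14 FRC libraries and 11683 genes, are given as a description, since the libraries share pools and depth. Picking the highest r among so many genes over 14 libraries gives high values by itself, so nothing is read from the size of r. Sfrp1 was most like Josd1 (r = 0.94), Armc5 (0.93) and Gm15928 (0.91), and Wnt5a most like Serinc3 (0.90), Spop (0.90) and Gm34755 (0.89). Dkk2 was most like Svep1 (0.88), Atp6v1h (0.87) and Mmaa (0.85), and Dkk3 most like Dhx33 (0.90), Cacna1h (0.86) and Ifitm1 (0.85). Rspo3 was most like Sned1 (0.87), Usp14 (0.84) and Fanci (0.84), and Rspo2 most like Dus2 (0.92), Haus5 (0.90) and Nav3 (0.90). Wnt4 was most like Rpl31 (0.89), Ier3 (0.88) and Gm11696 (0.88), Wnt2b like Lmnb2 (0.88), Hps1 (0.87) and Pot1b (0.86), and Wif1 like Txndc9 (0.89), Miga2 (0.87) and Elac1 (0.86). With a pseudocount of 0.1 only 1 of these 3 genes stayed among those most like Wif1, against 2 or 3 for each of the other members named.

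Wif1 was at 0, 0.108 and 7.76 CPM in FRC PEG libraries 1, 2 and 3 and at 0, 0 and 13.3 CPM in FRC control libraries 4, 5 and 6, against 9.62 to 39.9 CPM in FRC PEG and 2.09 to 22.9 CPM in FRC control among libraries 10 to 24. Dkk2 was at 68.0 to 125.5 CPM in FRC PEG and 50.6 to 111 CPM in FRC control among libraries 1 to 9, and at 123 to 201 CPM in FRC PEG and 127.5 to 192 CPM in FRC control among libraries 10 to 24.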
